A study of Mus musculus with 9 samples.

Results

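Genes for membrane transporters, ion pumps and ion channels gave rise to 679 of the 37751 circular RNAs (circRNAs) listed in differentiating C2C12 cells, and to 165 of the 6943 host genes. A host is the gene in whose locus a circRNA lies. The hosts were chosen by symbol alone: Slc followed by a digit, Abca, Abcb or Abcc without Abca1, the prefixes Atp1, Atp2, Atp8 and Atp11, Cacna, Kcn, and Trp followed by c, m or v. The Slc prefix gave 114 hosts, Kcn 10, Atp1 and Atp2 6 each, Abca and Abcb 5 each, Abcc, Atp8, Cacna and Trp 4 each, and Atp11 3. Read by its letters, the prefix Atp1 also takes in Atp10a, Atp13a1 and Atp13a3, and Atp2 takes in Atp23. Atp23, Slc4a1ap and Trpc4ap share a prefix but are not known as transporters, pumps or channels.

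C2C12 is an established line of mouse skeletal muscle myoblasts that withdraw from the cell cycle and fuse into multinucleated myotubes when serum is lowered. The study took RNA from proliferating cells below confluence in medium with fetal bovine serum (day 0), and 3 and 6 days after confluent cells were moved to medium with less, horse, serum. Each time point has 3 libraries. All 9 come from 1 cell line with no genetic change named. Nothing in the labels ties the libraries of a day to separate cultures, so the p-values below rest on a spread between libraries that may be technical.

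A circRNA forms when the 3′ end of an exon (the donor) is spliced back to the 5′ start of the same or an earlier exon (the acceptor), and only reads that cross this back-splice junction were counted. Solute carriers (Slc) move ions, sugars, amino acids and metals down or against gradients, ABC proteins use ATP to export or flip substrates, P-type ATPases pump ions or lipids, and channels open a pore. In muscle these proteins set the membrane potential and return calcium to its stores after contraction. The counts measure circRNA from these genes, not their mRNA or protein. The table used here holds no linear reads, so more transcription of a host and more back-splicing of the same transcripts cannot be told apart.

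The libraries held 208787 to 443955 back-splice reads, the largest in day 6 replicate 3 and the smallest in day 6 replicate 1. Among muscle genes, Ttn, the giant sarcomere protein, was listed as a host at a mean of 37.2, 7537 and 9202 CPM at days 0, 3 and 6. CPM is the usual count scaled to a common library total, here adjusted by TMM factors. Ryr1 (232, 2401 and 3668 CPM), Mef2a (431, 1283 and 1636) and Tnnt1 (3.80, 230 and 343) also rose. Mef2c, Myh3 and Ckm rose from 0 on fewer reads, and Dmd was listed at day 6 only. Not every muscle gene checked rose in this way. Des fell, with means of 52.05, 49.55 and 22.81 CPM. Neb stood at 0, 41.5 and 11.8 CPM, and Tnnt3 had 5 reads in total. Myod1, Myf5, Myog and Mymk, markers of myoblasts and fusing cells, were not listed as hosts, which says nothing about their mRNA. Of 15 markers of other cell types, 13 were not listed, and Pparg and Runx2 were, at 163 to 236 and 270 to 437 CPM by day. In bulk RNA, fewer cells with a circRNA and less circRNA per cell cannot be told apart.

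The most abundant circRNAs of these hosts often shared 1 end, as their junctions show. The sequences below run 5′ to 3′ across the junction: 15 bases of the donor exon in lower case, then 15 bases of the acceptor exon in capitals, read from the GENCODE M21 transcripts of GRCm38. Exon numbers follow the annotated transcript that holds both ends. The first set is Slc10a7, a membrane protein of the SLC10 family. These 4 circles enter at exon 2 and leave from 4 different exons, so the capitals are the same and the lower-case part differs. The Abcc1 pair shows the same design, and the Slc41a2 pair shares its acceptor at exon 4. The last 3 are the leading circles of the hosts other than Slc41a2 that passed the host test described below.
Slc10a7 exons 2 to 4 (chr8:78515586-78531158, plus strand): gttggtggaaatgagGACCACTGAAGCCAG
Slc10a7 exons 2 to 5 (chr8:78515586-78578757): tttggaagttttttgGACCACTGAAGCCAG
Slc10a7 exons 2 to 6 (chr8:78515586-78663022): ctcctgctgcttttcGACCACTGAAGCCAG
Slc10a7 exons 2 to 10 (chr8:78515586-78706948): agtccctcaccttggGACCACTGAAGCCAG
Abcc1 exons 2 to 4 (chr16:14389807-14394090, plus strand): tctgccttaaaaaagGACTGGAATGTCACA
Abcc1 exons 2 to 5 (chr16:14389807-14396476): actgtccatgaccggGACTGGAATGTCACA
Slc41a2 exons 4 to 8 (chr10:83281370-83304375, minus strand): cgccagttatcaacgGTAAATGTTGGGAAG
Slc41a2 exons 4 to 6 (chr10:83297154-83304375): tgtactcctgtcttgGTAAATGTTGGGAAG
Slc8b1 exons 6 to 14 (chr5:120520781-120530396, plus strand): ggggcatcatcttcaGGTGTCACCTTCCTG
Slc38a10 exons 7 to 10 (chr11:120128423-120134882, minus strand): gccccctcagcccagCCAGGTCCTGCCCAC
Atp13a3 exons 4 to 7 (chr16:30359669-30362749, minus strand): gatgcatgcctacagGAGATACATGGCTAT

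Reads were concentrated in a few hosts. The 679 circRNAs held 27823 reads, 34.9% of them in the 4 most abundant hosts and 62.9% in the 15 most abundant. Their share of all back-splice reads was 1.07%, 1.06% and 1.16% in the day 0 libraries, 1.07%, 0.937% and 1.01% at day 3, and 0.977%, 1.01% and 1.04% at day 6. The means were 1.10 ± 0.0592%, 1.01 ± 0.0681% and 1.01 ± 0.0314% (SD, n = 3 each). The day 6 libraries lay below the day 0 libraries without overlap, and those of day 3 overlapped both. Days 0 and 3 differed with an exact two-sided permutation p of 0.3, days 0 and 6 with 0.1, the smallest that 3 against 3 allows, and days 3 and 6 with 1. Libraries listed 57 to 90 of the hosts, with means of 69.7 ± 12.1, 82.0 ± 7.21 and 77.0 ± 11.5 at days 0, 3 and 6 (exact permutation p = 0.3, 0.6 and 0.7 in the same order of comparisons).

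Few of the hosts were seen throughout. Reads were listed in all 9 libraries for 26 hosts (15.8%, against 22.0% of all hosts), and in 1 library for 44 (26.7%, against 23.6%). The smallest count above 0 is 2, so a circRNA with 1 read in a library appears there as 0, and "no reads" means none listed. A filter on low counts left 91 hosts, with 96.1% of these reads, and 129 circRNAs, with 75.4%, for the tests across all hosts and all circRNAs. The other 74 hosts are described by counts only.

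Day 3 was compared with day 0 to ask which hosts differed between proliferating and early differentiating cells. Counts were compared by the quasi-likelihood F-test of edgeR with Benjamini-Hochberg adjustment over all 4135 tested hosts. Of the 91 hosts, 2 passed the threshold of 0.05, Slc8b1 higher and Slc38a10 lower, while 3.94% of all tested hosts passed. Day 6 against day 0 also gave 2 of 91, Atp13a3 higher and Slc41a2 lower, against 5.63% of all tested hosts. Each share of these hosts rests on 2 calls. At an unadjusted edgeR p under 0.05 the shares were close to those of all tested hosts. They were 12.1% against 13.4% at day 3, and 16.5% against 17.5% at day 6. The 2 comparisons share the day 0 libraries.

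Slc8b1 encodes the sodium-calcium exchanger of the inner mitochondrial membrane, which lets calcium out of mitochondria (ENSMUSG00000032754, chr5:120511168-120534024). Its back-splice reads stood at 355, 370 and 444 CPM at day 0, 1123, 702 and 908 at day 3, and 441, 526 and 931 at day 6. All day 3 libraries were above all day 0 libraries, and the day 6 libraries reached into both ranges. At day 3 the reads rose by 1.23 ± 0.32 on the log2 scale (± SE, with an edgeR adjusted p of 0.016). At day 6 the log2 fold change from day 0 was 0.71 ± 0.31 (edgeR adjusted p = 0.24). Without day 0 replicate 2 or day 3 replicate 1 the day 3 difference did not pass (edgeR adjusted p = 0.053 and 0.15).

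A single circle carried most of this signal. The Slc8b1 circRNA of exons 6 to 14, with 1571 reads the most abundant of all 679, made up 87.8% of its host's reads. It stood at 372, 362 and 362 CPM at day 0, 998, 614 and 876 at day 3, and 328, 442 and 710 at day 6. Tested alone among 8153 circRNAs, its log2 fold change at day 3 was 1.18 ± 0.36 with an edgeR adjusted p of 0.10, and it passed with DESeq2 (adjusted p = 0.021). Its neighbour chr5:120520774-120530396 starts 7 bases upstream, shares the donor, and was listed in 3 libraries.

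Slc38a10 belongs to the SLC38 family of neutral amino acid transporters (ENSMUSG00000061306, chr11:120103960-120151346). Its reads stood at 539, 461 and 452 CPM at day 0, 250.5, 59.7 and 23.6 at day 3, and 194, 306 and 300.1 at day 6. Every day 0 library was above every later one, and day 3 replicate 1 was the highest of a spread-out day 3 group. The fall at day 3 was -2.12 ± 0.58 on the log2 scale (edgeR adjusted p = 0.027), and the log2 difference of day 6 from day 0 was -0.86 ± 0.56 (edgeR adjusted p = 0.45). Without day 3 replicate 1 the log2 fold change at day 3 was -3.54, and without day 3 replicate 2 or 3, or with only these 2 groups in the fit, the edgeR adjusted p was 0.053, 0.15 and 0.13.

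The Slc38a10 circles fan out from a common donor. Of its 12 circRNAs, 6 leave from the donor of exon 10 at position 120128423, and these held 69.9% of the host's reads. The leading one, exons 7 to 10, had 82, 56 and 50 reads at day 0, 19, 0 and 0 at day 3, and 30, 7 and 47 at day 6. The longer circle of exons 2 to 10 (chr11:120128423-120147838) had 23, 21 and 32 reads at day 0, none at day 3, and 24 reads in day 6 replicate 2 alone at that time. Neither passed on its own at day 3 (edgeR adjusted p = 0.21 and 0.28). With DESeq2 the longer one passed (adjusted p = 0.030) and the leading one did not (adjusted p = 0.16). Without day 3 replicate 1, the only day 3 library with its reads, the leading one passed (edgeR adjusted p = 0.00086), and leaving out any other library gave up to 0.56.

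Slc41a2 encodes a magnesium transporter (ENSMUSG00000034591, chr10:83230848-83337882). Its reads stood at 1013, 950 and 1576 CPM at day 0, 755, 906 and 784 at day 3, and 509, 599 and 395 at day 6. The 3 groups did not overlap in any pair. The fall at day 6 was a log2 fold change of -1.24 ± 0.28 from day 0 (edgeR adjusted p = 0.0034), and without day 0 replicate 3 it was -0.96 (edgeR adjusted p = 0.074). The log2 differences of day 3 from day 0 and of day 6 from day 3 were -0.53 ± 0.28 and -0.71 ± 0.28, and neither passed (edgeR adjusted p = 0.40 and 0.74).

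Its main circRNA, exons 4 to 8, stood at 450, 393 and 506 CPM at day 0, 379, 347 and 299 at day 3, and 135, 118 and 189 at day 6. These groups did not overlap either, with a log2 fold change of -1.60 ± 0.50 at day 6 (edgeR adjusted p = 0.093, DESeq2 adjusted p = 0.00013). The circle of exons 7 to 10 (chr10:83254783-83283869) took varying shares. It made up 13.8%, 7.88% and 8.67% of the host's reads at day 0, 9.05%, 14.0% and 33.8% at day 3, and 46.7%, 45.3% and 15.6% at day 6. An exact permutation test of these shares between days 0 and 6 gave p = 0.1, the smallest possible, and the test of unequal change among the 10 tested Slc41a2 circRNAs gave an edgeR p of 0.23 before adjustment.

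Atp13a3 encodes a P-type ATPase that takes up polyamines (ENSMUSG00000022533, chr16:30312423-30405975). No reads were listed at day 0. At day 3 it stood at 45.6, 101.8 and 20.6 CPM, and at day 6 at 101.8, 185 and 28.4, from 14, 29 and 7 and from 21, 43 and 12 reads. With an assumed floor of 3 reads per library at day 0, the mean was 9.81-fold higher at day 6 (edgeR adjusted p = 0.041). At day 3 it was 5.23-fold higher (edgeR adjusted p = 0.097). The floor is not a strict limit, because a single read of any of the 5 Atp13a3 circRNAs would not be listed. This call is the least steady of the 4: it held in 6 of 15 alternative settings, and leaving out a library gave edgeR adjusted p-values up to 0.18. It was lost without any single day 0 library (0.10 each), day 3 replicate 2 (0.058) and day 6 replicate 1 or 2 (0.061 and 0.18). The circle of exons 4 to 7 held 59.5% of its 126 reads.

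**Figure D1:**
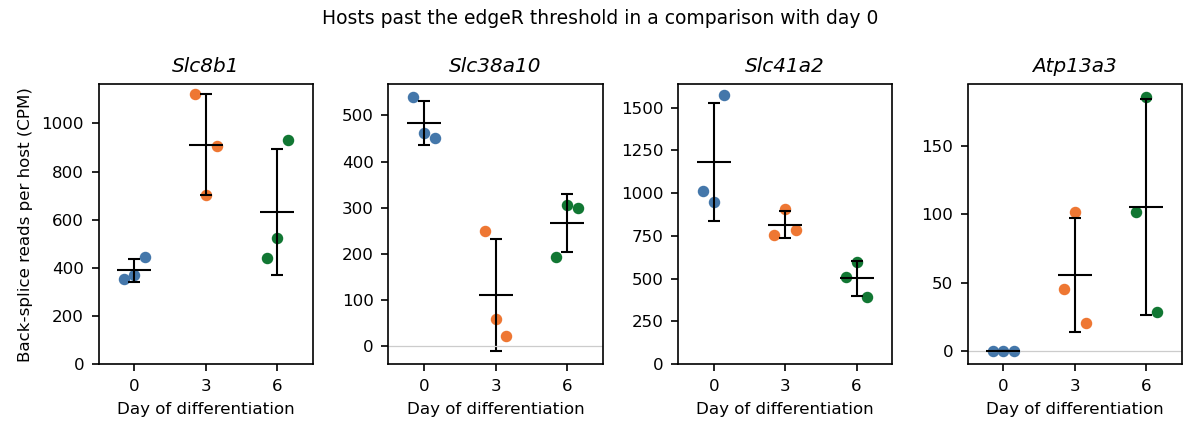
Back-splice reads per host in CPM (vertical axis, from or just below 0) against day (horizontal axis) for Slc8b1, Slc38a10, Slc41a2 and Atp13a3, with 1 point per library and the mean ± SD of 3 libraries as a bar with whiskers. The Slc41a2 means are 1179, 815 and 501 CPM, while Slc38a10 is lowest at day 3 with a mean of 111 CPM.

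Day 6 against day 3 gave no call among the 91 hosts by edgeR or by DESeq2, where 0.0726% and 0.459% of all tested hosts passed. At an unadjusted edgeR p under 0.05 there were 4 hosts, against 5.95% of all. In order of these 3 comparisons, with days 6 and 3 last, none of the 129 tested circRNAs passed edgeR, where 1.58%, 1.99% and 0.0613% of all tested circRNAs passed. At an unadjusted edgeR p under 0.05 there were 9, 6 and 4, against 9.51%, 11.6% and 4.34% of all. DESeq2 called 2, 2 and 0, against 3.34%, 5.72% and 0.245% of all, namely the circles of Slc8b1 exons 6 to 14 and Slc38a10 exons 2 to 10 at day 3, and those of Slc41a2 exons 4 to 8 and Slc6a8 (chrX:73677321-73679188) at day 6. Groups did not overlap for 21, 15 and 6 of the 91 hosts, against 20.9%, 23.7% and 11.2% of all tested hosts. The median log2 fold change of the 91 was 0.20 at day 3 and 0.09 at day 6 against day 0, beside -0.02 and -0.13 over all tested hosts. With hosts at 0 in a group set against a floor of 3 reads per library, the members' median was 0.10 at day 3 and 0.09 at day 6. The tested circRNAs had medians of -0.06 and 0.10, beside 0.12 and 0.01 over all tested circRNAs, so at day 3 the members lay above all hosts by host and below all circRNAs by circRNA. With library totals in place of TMM factors the medians by host became 0.07 and -0.03, beside -0.15 and -0.24. The sign of the members' median by host at day 6 thus depends on the scaling. The medians by circRNA became -0.16 and 0.04, beside 0.05 and -0.002, and those of the members kept their signs.

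With DESeq2, 5 and 6 of the 91 hosts passed at days 3 and 6 against day 0, where 6.92% and 11.1% of all tested hosts did. Beyond the edgeR calls these were Slc8a1 and Slc6a8 at both days, Atp13a3 at day 3, and Slc4a7 and Slc35f1 at day 6. Slc8a1, Slc6a8 and Slc35f1 are named here because of these values. Slc8a1, the sodium-calcium exchanger of the plasma membrane, had no reads at day 0, 13, 40 and 28 at day 3, and 12, 18 and 0 at day 6. Slc6a8, which imports creatine into muscle, had none at day 0, 10, 13 and 26 at day 3, and 21, 9 and 28 at day 6. Slc35f1 had none at day 0, 8, 9 and 0 at day 3, and 27, 22 and 11 at day 6, but both of its circles lie on the strand opposite to the annotated gene. The edgeR adjusted p-values of these 3 hosts against day 0 were 0.11 to 0.36.

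Absence at day 0 was more frequent among these hosts than among hosts at large, as a count without a test. No reads were listed at day 0 for 57 of the 165 (34.5%, against 22.3% of all hosts), at day 3 for 41 (24.8%, against 24.7%) and at day 6 for 43 (26.1%, against 28.8%). Most of the 57 were seen in 1 or 2 libraries, and 15 in 3 or more. At day 0 alone 17 hosts were seen (10.3%, against 11.9% of all hosts), and none of these was in all 3 of its libraries. This does not compare with the 15, which could draw on the libraries of 2 days. For neither of these counts by number of libraries was a share over all hosts taken. The 15 include the lysosomal sialic acid carrier Slc17a5, the cystine importer Slc7a11, the copper importer Slc31a1, the potassium-chloride cotransporter Slc12a4 and the phospholipid flippase Atp11a, whose reads at days 3 and 6 were 6, 0, 30, 8, 8 and 9.

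Hosts that handle calcium summed to 864, 926 and 873 CPM at day 0, 1685, 1700 and 1495 at day 3, and 1178, 1099 and 1765 at day 6. Of these 12 hosts 8 were tested, and Slc8b1 was the one that passed. Without it the means were 498 ± 64.0, 716 ± 244 and 715 ± 132 CPM (SD, n = 3). Cacna2d1, an auxiliary subunit that carries voltage-gated calcium channels to the membrane, was next with 22 circRNAs and 249 ± 109, 356 ± 174 and 427 ± 179 CPM. Its groups overlapped in every pair (edgeR adjusted p = 0.82, 0.39 and 1). Atp2b4, a calcium pump of the plasma membrane, stood at 206, 86.7 and 182 CPM at day 0, 87.8, 147 and 118 at day 3, and 24.2, 21.6 and 118 at day 6, and did not pass (edgeR adjusted p = 1, 0.46 and 1). The calcium pumps of the sarcoplasmic reticulum gave few circles: Atp2a2 had 73 reads in 7 libraries and Atp2a1 2 reads in 1. The pore subunit of the skeletal muscle calcium channel, Cacna1s, had 4 reads, all in day 6 replicate 3.

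Slc41a2 was the one of 4 tested hosts for magnesium transport and Trp channels that passed. The 5 hosts of this group summed to 1389 ± 314, 1052 ± 29.1 and 685 ± 116 CPM at days 0, 3 and 6, and to 210 ± 92.4, 237 ± 52.9 and 184 ± 63.2 CPM without Slc41a2 (SD, n = 3). Trpm7, a channel fused to a kinase that passes magnesium and calcium, stood at 122, 256 and 152 CPM at day 0, 202, 77.3 and 200.5 at day 3, and 14.5, 112 and 191 at day 6. Its groups overlapped (edgeR adjusted p = 1, 0.82 and 1).

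The 10 potassium channel hosts are channel subunits and partners such as the calcium-activated Kcnma1. None had reads at day 0. Together they held 137 reads, with sums of 0, 59.7 and 88.5 CPM in the day 3 libraries and 194, 151 and 35.4 at day 6. Of the 10, 6 were seen in 1 library. The 1 circle of Kcnip1 lies on the strand opposite to the annotated gene. It gave 53.3 and 25.9 CPM of the sums in day 6 replicates 1 and 2. A floor of 3 reads in a day 0 library is 8.94 to 11.8 CPM for 1 host. The sum over 10 hosts at 0 can hide more than this, so the sums at day 0 may be well above 0.

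ABC transporter hosts summed to 2140, 1938 and 1936 CPM at day 0, 1490, 1510 and 1295 at day 3, and 1290, 1879 and 1661 at day 6, with all day 0 libraries highest. None of the 7 tested passed. Abcc1, an exporter of glutathione conjugates, led with 1189, 950 and 1245 CPM at day 0, 947, 973 and 890 at day 3, and 824, 1099 and 983 at day 6 (edgeR adjusted p = 0.83, 0.81 and 1). Abcc4, which exports cyclic AMP among other substrates, stood at 617, 425 and 254 CPM at day 0, 153, 147 and 100.3 at day 3, and 194, 0 and 165 at day 6. Its day 0 libraries were above all later ones, with log2 fold changes of -1.69 ± 0.72 and -1.84 ± 0.72 that did not pass (edgeR adjusted p = 0.27 and 0.16). The day 6 difference passed without day 3 replicate 2 or day 6 replicate 1 (edgeR adjusted p = 0.045 and 0.040), and leaving out any other library gave up to 0.36. Abcc5, an exporter of organic anions, stood at 272 ± 153, 181 ± 43.9 and 289 ± 188 CPM. Abca5 led its family with 108 ± 31.0, 79.1 ± 41.0 and 78.6 ± 50.9 CPM, and the mitochondrial Abcb10 led the Abcb hosts from 5 of 9 libraries.

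Abcc1 had the most distinct circRNAs of these hosts, 32. The circle of exons 2 to 4 made up 44.9%, 33.6% and 28.0% of its reads at day 0, 13.1%, 23.8% and 23.8% at day 3, and 17.1%, 38.04% and 26.4% at day 6. The circle of exons 2 to 5 made up 26.6%, 36.1% and 25.0%, then 48.8%, 30.7% and 42.1%, then 27.1%, 28.2% and 29.6%. The shorter circle thus had the larger mean share at day 0 (35.5% against 29.2%) and the smaller at day 3 (20.2% against 40.5%). Across its 14 tested circRNAs the test of unequal change gave an edgeR p of 0.65 before adjustment at day 3. Exact permutation tests of the 2 shares between days 0 and 3 gave p = 0.1 and 0.2, where 0.1 is the smallest possible. None of the 21 hosts with 2 or more tested circRNAs passed the test of unequal change in any comparison, where 0.364%, 0.606% and 0.0606% of the 1649 such hosts did. At an unadjusted edgeR p under 0.05 there were 2, 0 and 0, against 10.1%, 11.1% and 6.43% of all. Those at day 3 were Slc35b3 and Trpm7 (edgeR adjusted p = 0.45 and 0.47).

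Of the hosts for sodium, proton, bicarbonate and chloride transport, 14 of 24 were tested and none passed. Slc9a9, the endosomal sodium-proton exchanger, stood at 101, 197 and 201 CPM at day 0, 335, 478 and 330.3 at day 3, and 276, 289 and 461 at day 6. All later libraries were above all day 0 libraries, with log2 fold changes of 1.20 ± 0.48 and 1.05 ± 0.48 (edgeR adjusted p = 0.22 and 0.25). Atp1b3, a beta subunit of the sodium-potassium pump, came from 1 circle of exons 2 to 4 (chr9:96340202-96345893) and stood at 163 ± 75.9, 191 ± 176 and 316 ± 85.8 CPM. Slc4a7, a sodium bicarbonate cotransporter with 20 circRNAs, stood at 364, 221 and 235 CPM at day 0, 186, 155 and 106 at day 3, and 102, 38.8 and 147 at day 6. Its later libraries lay below those of day 0 (edgeR adjusted p = 0.71 and 0.26, DESeq2 adjusted p = 0.044 at day 6).

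Among 26 hosts for amino acids, taurine and creatine, 16 were tested and only Slc38a10 passed, at day 3. Slc38a1, which imports glutamine, stood at 292, 461 and 551 CPM at day 0, 205, 365 and 124 at day 3, and 373, 90.5 and 142 at day 6, and its groups overlapped (edgeR adjusted p = 0.46 and 0.28 against day 0). Its circle of exons 2 to 4 is listed in circBase and held 91.9% of its reads. Slc6a6, the taurine transporter with 18 circRNAs, stood at 187 ± 65.5, 171 ± 75.2 and 273 ± 75.5 CPM.

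The remaining solute carriers were led by Slc10a7 at 969, 662 and 1135 CPM at day 0, 1510, 1141 and 1159 at day 3, and 1362, 1267 and 1224 at day 6. Every later library was above every day 0 library, but the log2 fold changes of 0.46 ± 0.24 and 0.48 ± 0.24 did not pass (edgeR adjusted p = 0.40 and 0.30). Slc33a1, which carries acetyl-CoA into the endoplasmic reticulum, stood at 317 ± 104, 301 ± 57.8 and 288 ± 115 CPM, the choline transporter Slc44a1 at 287 ± 87.2, 263 ± 78.1 and 325 ± 85.5, and the phosphate transporter Slc20a2 at 207 ± 105, 248 ± 27.2 and 198 ± 74.5. Slc25a46, a protein of the outer mitochondrial membrane, led the 18 mitochondrial carrier hosts with 238, 31.5 and 273 CPM at day 0, 283, 73.8 and 115 at day 3, and 625, 254 and 312 at day 6 (edgeR adjusted p = 1, 0.34 and 0.74). These hosts overlapped between days in every pair or, for Slc10a7, between days 3 and 6. Among lipid flippases, Atp8b2 led the Atp8 hosts with 110 reads in 6 libraries.

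**Figure D2:**
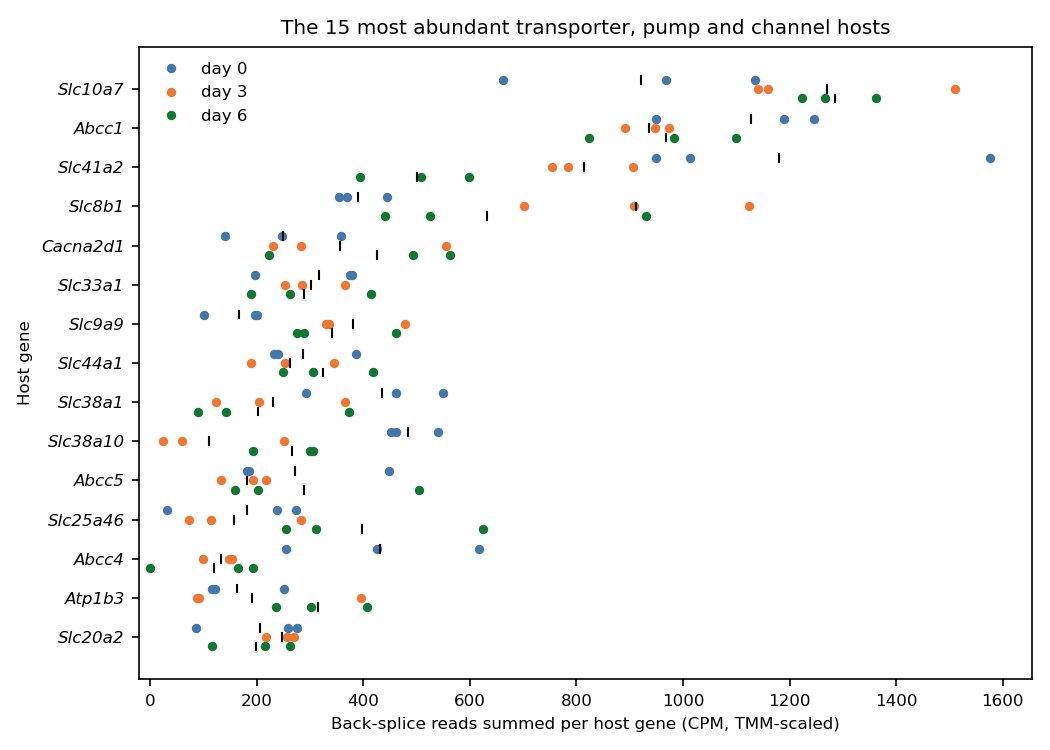
Back-splice reads per host in CPM (horizontal axis, linear) for the 15 most abundant hosts (rows), with 1 point per library coloured by day and a black tick at the mean of 3 libraries. The first 3 hosts have means of 922, 1128 and 1179 CPM at day 0, and Slc8b1 moves from 390 CPM there to 911 CPM at day 3.

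**Figure D3:**
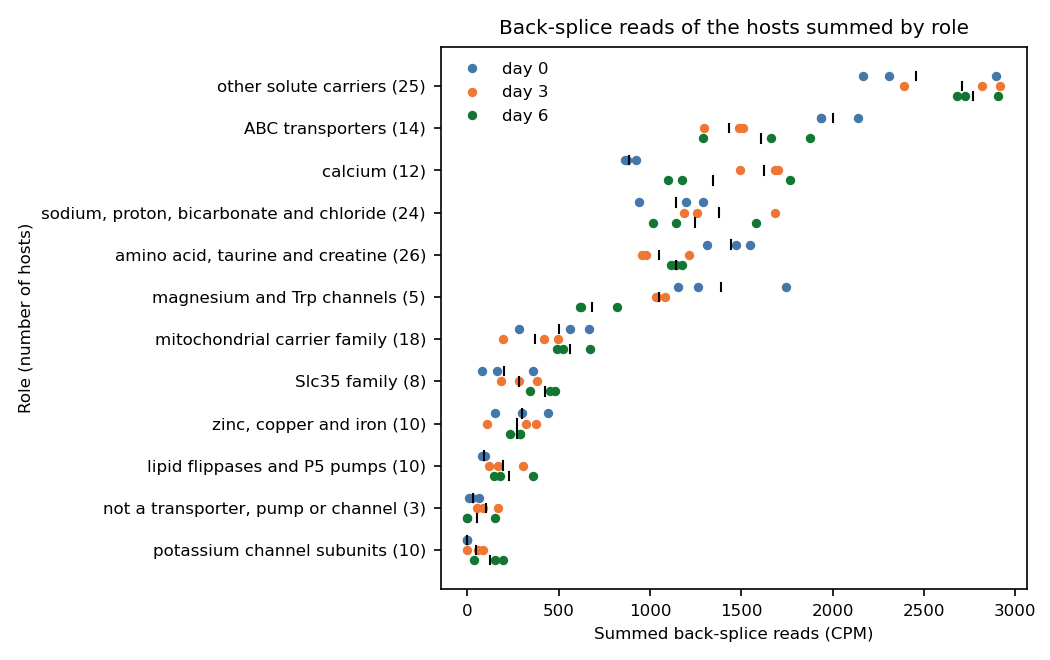
Back-splice reads of the 165 hosts summed by role in CPM (horizontal axis, linear), with 1 point per library coloured by day and a black tick at the mean of 3 libraries. The calcium group lies higher at days 3 and 6 than at day 0, the magnesium and Trp group has means of 1389, 1052 and 685 CPM, and the potassium channel hosts are at 0 at day 0.

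The circles of several hosts were built on a common end. In Slc10a7, 12 of 21 circRNAs enter at position 78515586, the start of exon 2, and held 86.6% of its reads. In Slc44a1 the start of exon 2 at 53481464 (chromosome 4) served 9 of 19 circRNAs with 85.5% of reads, in Abcc1 that at 14389807 served 6 of 32 with 66.8%, and in Slc37a3 an acceptor at 39367046 (chromosome 6) served 4 of 7 with 91.3%. In Slc41a2 the end that served the most circRNAs was a donor, at 83281370, with 7 of 20 circRNAs and 46.7% of reads. In day 0 replicate 2, 57.1% of Slc10a7 reads came from the circle of exons 2 to 4 and none from those of exons 2 to 10 or 2 to 5, which held 21.4% and 24.7% in day 0 replicate 3.

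**Figure D4:**
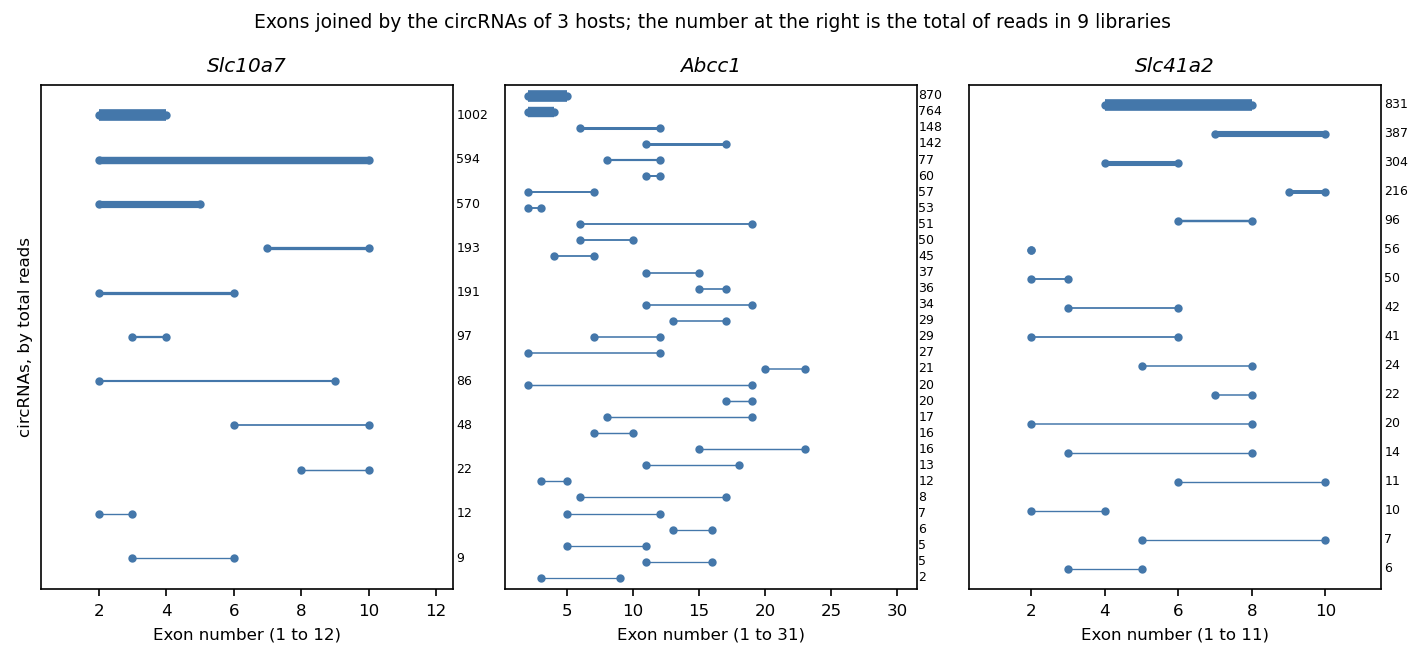
First and last exon (horizontal axis, exon number in the annotated transcript) of each circRNA placed on the main transcript of Slc10a7, Abcc1 and Slc41a2, 1 line per circRNA in order of reads, with line width set by the total reads printed at the right. The widest lines of Slc10a7 and Abcc1 begin at exon 2, with 1002 and 870 reads for the first of each, while those of Slc41a2 begin at exons 4 and 7.

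In structure the 679 circRNAs were close to those of hosts at large, as a description without a test. Exonic circRNAs made up 89.5% of them, against 89.8% of all circRNAs with a host. The strand was an exception, on few circRNAs. Opposite to the annotated host lay 5 of the 679, a larger share than the 113 of all 36815 circRNAs with a host. Among circRNAs in at least 2 libraries these were 3 of 254 and 16 of 14341. Of the 532 placed on a transcript, 150 (28.2%) began at exon 2, against 25.6% of all placed circRNAs, and none began at exon 1. The median spliced length was 610 bases against 585, and 87.2% lay wholly in coding sequence, against 86.3%. The wholly coding circles kept the reading frame, with a length that is a multiple of 3, in 34.9% of cases against 39.3%.

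They differed more in how widely they were seen. Only 15 (2.21%) carried a circBase identifier, against 2.74%, but these held 7.38% of reads, against 31.5% over all circRNAs with a host. The 19 circRNAs listed in all 9 libraries (2.80%, against 4.02%) held 36.4% of reads, against 60.5%. Those in circBase include the leading circles of Slc38a1, Slc20a2 and Atp2b4 and 4 circles of Cacna2d1.

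**Figure D5:**
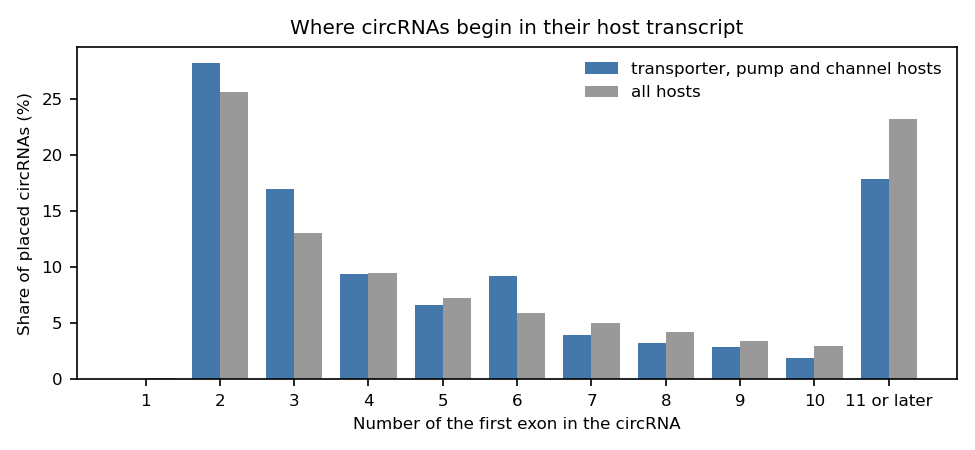
Share of placed circRNAs in percent (vertical axis, from 0) by the number of the first exon in the circle (horizontal axis), for the 532 circRNAs of these hosts and for all 29222 placed circRNAs. Exon 2 is the tallest pair of bars, at 28.2% and 25.6%, and exon 1 is at or near 0 in both.

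Transport genes outside the chosen prefixes, such as ryanodine receptors, anoctamins and vacuolar proton pump subunits, were listed as 86 hosts. Of 51 tested, 5 passed at day 3, Ano3, Mcoln1, Ryr1 and Slco3a1 among them, and 5 at day 6, Ano3, Ryr1, Ryr3 and Slco3a1 among them, by edgeR against day 0, all higher, and 0 passed between days 3 and 6. These are 9.80% in each comparison with day 0, beside 3.94% and 5.63% of all tested hosts.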

How the data were processed

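Back-splice reads were measured in 9 libraries of C2C12 cells, 3 per time point. The authors deposited raw read counts per circRNA and library in 1 table with locus, type and host gene. BWA and the mouse build GRCm38.p4 (mm10) are named per the submitters' processing notes; no circRNA caller, filter or duplicate handling is given in the sources used here. Per the labels' protocols, no digestion of linear RNA is named. Depth was 208787 to 443955 back-splice reads per library. Without molecular identifiers, floors (3 reads per library) and intervals cover counting error only.

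The hosts, lists and named genes were chosen with earlier results of these data known. Symbols came from GENCODE M21 for 6861 of 6943 host identifiers. Counts per circRNA, and sums per host, were tested across the whole table with edgeR 4.0.16 (R 4.3.3): TMM factors, filterByExpr (minimum count 5, minimum total 15), quasi-likelihood F-test on all 9 libraries with group means, 6 residual degrees of freedom, Benjamini-Hochberg adjustment over all features and a threshold of 0.05. The SE of a log2 fold change (prior count 0.125) is its size divided by the square root of F. Unequal change among circRNAs of a host was tested with edgeR's diffSpliceDGE. Role groups were made from gene symbols and are described by sums, without a test. Scripts were tested on simulated data.

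Named were hosts and circRNAs past the threshold, the 15 most abundant of each, the leading host of each family and the 8 hosts with the most circRNAs; some items are not reported here, and others are said to be named for their values or belong to a described group. Alternatives were DESeq2 1.42.0, library totals, other filters, only the 2 groups compared, a replicate block, a narrow reading of Atp1 and Atp2, and leaving out each library.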

Additional observations from a re-analysis of the deposited data

How the results depend on the processing

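Of the 91 tested hosts, 2 passed at day 3 and 2 at day 6 against day 0. DESeq2 gave 5 and 6, a fit of only the 2 groups compared 1 and 1, and leaving out 1 library 1 to 2 and 0 to 2. At day 6, library totals without TMM factors gave 1, and the narrow reading of Atp1 and Atp2, which leaves out Atp13a3, also gave 1. Among circRNAs, where none passed at day 3 or day 6, DESeq2 gave 2 and 2, a minimum count of 10 gave 1 at day 6, and leaving out 1 library gave 0 to 1 in each. Day 6 against day 3 stayed at 0 hosts and 0 circRNAs in all settings tried. Unequal change among circRNAs at day 3 gave 0 to 1 hosts on leaving out 1 library, and 0 in every setting at day 6. The cause of these differences was not tested.

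The difference in the share of all back-splice reads between days 6 and 3 was 0.0012 percentage points, 0.0576 with only circRNAs in at least 2 libraries, and -0.0342 to 0.0337 on leaving out 1 library. Leaving out 1 library gave -0.121 to -0.0531 for day 3 against day 0 and -0.108 to -0.0534 for day 6 against day 0.

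By host, deviations from the day means of libraries with the same number correlated at -0.033 to -0.001 over 9 pairs. Those of libraries with other numbers correlated at -0.024 to 0.042. Both ranges are small, and with low counts and 3 libraries a day they cannot settle whether the numbers pair the libraries. With a replicate block 2 hosts passed at day 3 and 2 at day 6 against day 0, and 0 between days 3 and 6. Among circRNAs 1, 0 and 0 passed, and 0 hosts passed the test of unequal change. The block ended the call of Atp13a3 at day 6 (edgeR adjusted p = 0.083) and gave one to Abcc4 at day 6 (edgeR adjusted p = 0.046, lower) and to the Slc38a10 circle of exons 7 to 10 at day 3 (edgeR adjusted p = 0.039, lower). Low counts left 74 hosts untested.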
